A study of Rattus norvegicus with 7 samples.

Results

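Histone genes were represented by 60 probe sets of the 19086 that carry a gene name in the platform annotation. They were taken by symbol (Hist1h, Hist2h, Hist3h, H1f, H2a, H2b, H3f, H3c, H4c or H4f at its start), and a probe set shared by several histone genes was counted once. By symbol, 39 of them belong to replication-dependent histones, 20 to variant histones, and 1 carries symbols of both classes. A log2 signal above 5 in at least 1 array, the level the study used to set weak genes aside, was reached by 36 probe sets, 26 replication-dependent and 10 variant. The other 24 (13 replication-dependent, 10 variant and the 1 with both) stayed at or below 5 in every array and were counted but not tested. Among them are H2bu1 and H3f4, Hist3h2bb and Hist3h3 in older naming, which count as variant by their current symbol alone.

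The 7 samples were whole lenses of 6-week-old male Sprague Dawley rats, kept in culture medium, and the RNA of each was read by 1 GeneChip Rat Gene 2.0 ST array. The Control group held 1 array of lenses cultured for 4 days and 1 of lenses cultured for 6 days, both without galactose and called Control Day 4 and Control Day 6. In the Galactose group there were 3 arrays of lenses cultured for 6 days with 30 mM galactose, a sugar that turns cultured lenses opaque. The Glutamate group held 2 arrays of lenses cultured for 6 days with 30 mM galactose, to which 20 mM glutamate was added once opacity had formed. Lenses were out of the body throughout, and the sources do not say whether the arrays of a group came from separate animals, so each p measures the spread between these arrays only. In a fit over all 7 arrays, the difference between Control Day 4 and Control Day 6 is part of that spread in every comparison.

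Histones are the proteins around which DNA is wound. Pairs of H2A, H2B, H3 and H4 form the nucleosome core, and the linker histone H1 binds the DNA between cores. Replication-dependent genes lie in clusters, have no introns, give transcripts that end in a stem-loop in place of a poly(A) tail, and are expressed mainly while DNA is copied. Variant histones are encoded outside the clusters and made throughout the cell cycle, and they replace the canonical forms at active genes, promoters or DNA breaks. In the lens, cell division is confined to the epithelium, and fibre cells lose their nuclei as they mature.

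Between groups, 5320 named probe sets above 5 were tested with limma, with Benjamini-Hochberg adjustment over all of them. Control Day 6 stood apart from the other arrays: 1352 of the 5320 probe sets (25.4%) were at least 2-fold lower in it than in Control Day 4, and its median log2 signal over the 5320 was 5.37 against 5.55 to 5.77 in the other 6 arrays. The 6 lens fibre markers on the array had a median log2 signal between 11.37 and 11.79 in every array, and the 6 lens epithelial markers one between 6.13 and 7.37. The markers of vessels, retina and of ciliary body and iris stayed at or below 5 throughout, as did 6 of 7 leukocyte markers (all but Cd68) and 4 of 5 fibroblast and smooth muscle markers (all but Pdgfra).

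Replication-dependent histone signals were higher in Galactose than in Control for 23 of 26 probe sets by their means, with a median log2 fold change of 0.88, where the median over all 5320 probe sets was 0.17. The variant histones were higher for 7 of 10, with a median of 0.67. With glutamate added, 25 of the 26 replication-dependent means and 8 of the 10 variant means lay below Galactose, with medians of -0.70 and -0.43 beside -0.11 for all probe sets, of which 64.6% lay below Galactose. With no filter on low values, 31 of 39 replication-dependent and 11 of 20 variant means were higher in Galactose than in Control, where 51.2% of all named probe sets were, and the class medians were 0.63 and 0.06. The gene with the greatest difference was H3f3b, which encodes the replacement histone H3.3, and it was followed by H2ac25, Hist2h2be and H2ax. No histone passed an adjusted p of 0.05 in any of the 3 comparisons when fitted on the signals of all 7 arrays as deposited, so the differences are given as values. In whole lenses, fewer cells of a type and less RNA per cell cannot be told apart.

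**Figure D1:**
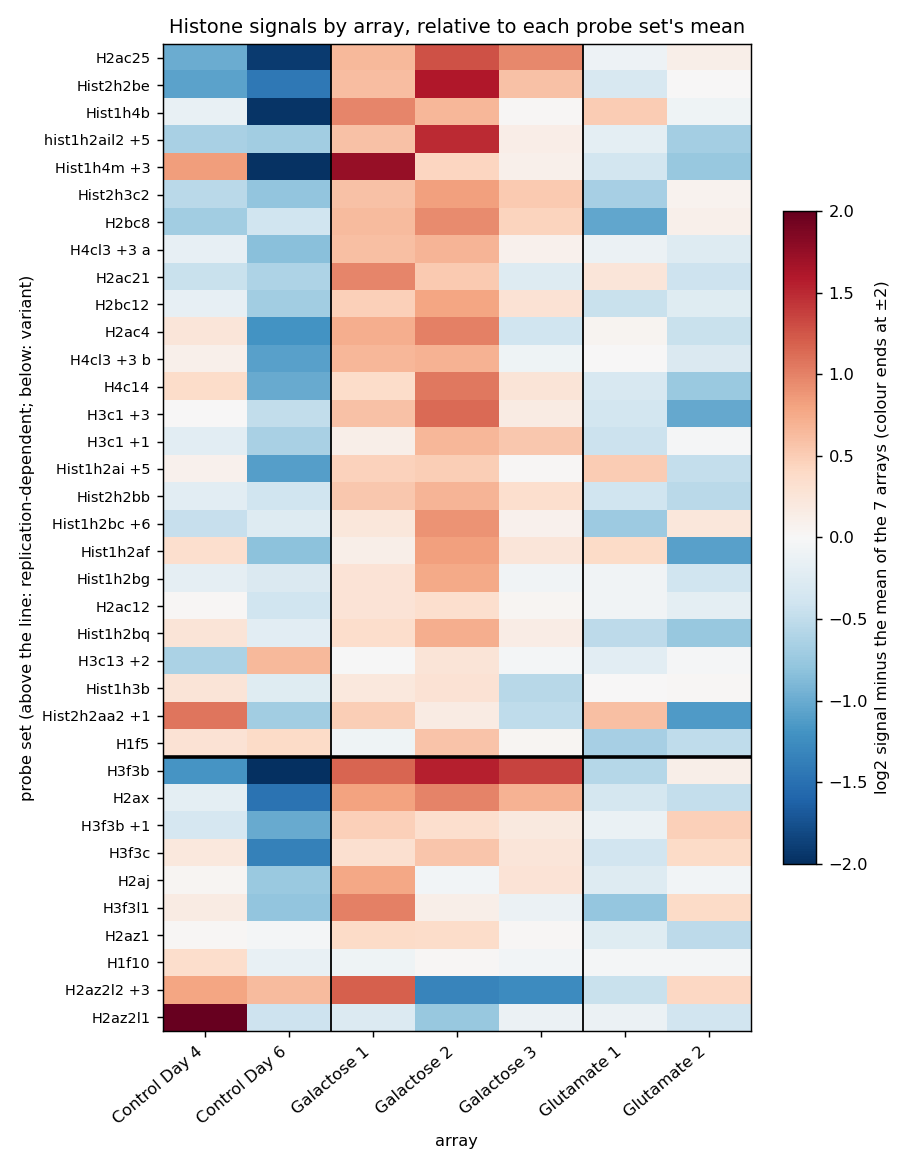
Colour shows the log2 signal of each of the 36 histone probe sets (rows) in each array (columns) minus its own mean over the 7 arrays; a number after a symbol counts the other genes on that probe set, and the letters a and b tell apart 2 probe sets with the same first symbol. In the replication-dependent class all 26 probe sets were above their own mean in Galactose 2, against 24 in Galactose 1 and 19 in Galactose 3, and 2 were in Control Day 6.

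Signals of H3f3b, on the probe set that carries this gene alone, were 8.27 in Control Day 4 and 7.03 in Control Day 6. In Galactose they were 10.62, 11.01 and 10.81, and in Glutamate 8.89 and 9.57. The groups did not overlap: every Galactose array was above every other array, and both Glutamate arrays lay between Galactose and Control. Galactose exceeded Control by 3.16 on the log2 scale (standard error 0.40), which is 8.94-fold, with an adjusted p of 0.0626 in limma. It passed the threshold after centring of each array on its median (adjusted p = 0.0272), after a second quantile normalization (0.0290) and without Control Day 4 (0.00517), over a range up to 0.352 in the other alternatives. Glutamate differed from Galactose by -1.58 (standard error 0.40, adjusted p = 0.611). Glutamate against Control was 1.58 (adjusted p = 0.721), so Glutamate lay at 1.58 of the 3.16 log2 units between Control and Galactose.

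H2ac25, Hist3h2a in older naming, encodes a core H2A of a small separate histone cluster. It measured 5.80 in Control Day 4, 4.88 in Control Day 6, 7.44, 8.07 and 7.76 in Galactose, and 6.68 and 6.91 in Glutamate. As for H3f3b, the 3 groups were separate and Glutamate was intermediate. Under those same 3 alternatives H2ac25 passed as well. Its Galactose mean was 2.42 log2 units above Control (standard error 0.33, adjusted p = 0.0669 in limma), and the second difference, of Glutamate against Galactose, was -0.96 (standard error 0.33, adjusted p = 0.853).

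Hist2h2be encodes a core H2B of the second cluster. Control values were 3.46 and 3.10, Galactose values 5.15, 6.14 and 5.12, and Glutamate values 4.22 and 4.55. The probe set was above 5 in Galactose alone, so its passing the level of 5 came from the group in which it was high. The log2 fold changes were 2.19 (standard error 0.36, adjusted p = 0.0875 in limma) and -1.09 (standard error 0.36, adjusted p = 0.812). Of the 36 probe sets, 4 were above 5 only in Galactose arrays: Hist2h2be, H2ax, H2ac21 and the probe set shared by H3c1 and Hist1h2ail1. H2az2l1 was above 5 only in Control.

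H2ax, named H2afx on earlier lists, encodes the H2A variant that is phosphorylated at DNA double-strand breaks; in human cells its gene also gives a replication-dependent transcript. It read 4.78 on the Day 4 Control array and 3.52 on the Day 6 one, 5.80, 5.98 and 5.68 in Galactose, and 4.63 and 4.51 in Glutamate. All 3 Galactose arrays were above all others, and the Glutamate arrays lay within the range of the Control arrays. The log2 fold change was 1.67 in the first step (standard error 0.37, adjusted p = 0.129 in limma) and -1.25 in the second (standard error 0.37, adjusted p = 0.706).

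Hist2h3c2, a core H3 gene of the second cluster with one of the 3 highest mean signals of its class, read 8.16 and 7.93 in Control, 9.29, 9.53 and 9.23 in Galactose, and 8.04 and 8.78 in Glutamate. The Galactose arrays were again above all others, while Glutamate 1 was inside the Control range and Glutamate 2 above it. The log2 fold changes were 1.30 (standard error 0.27, adjusted p = 0.124 in limma) and -0.94 (standard error 0.27, adjusted p = 0.701).

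**Figure D2:**
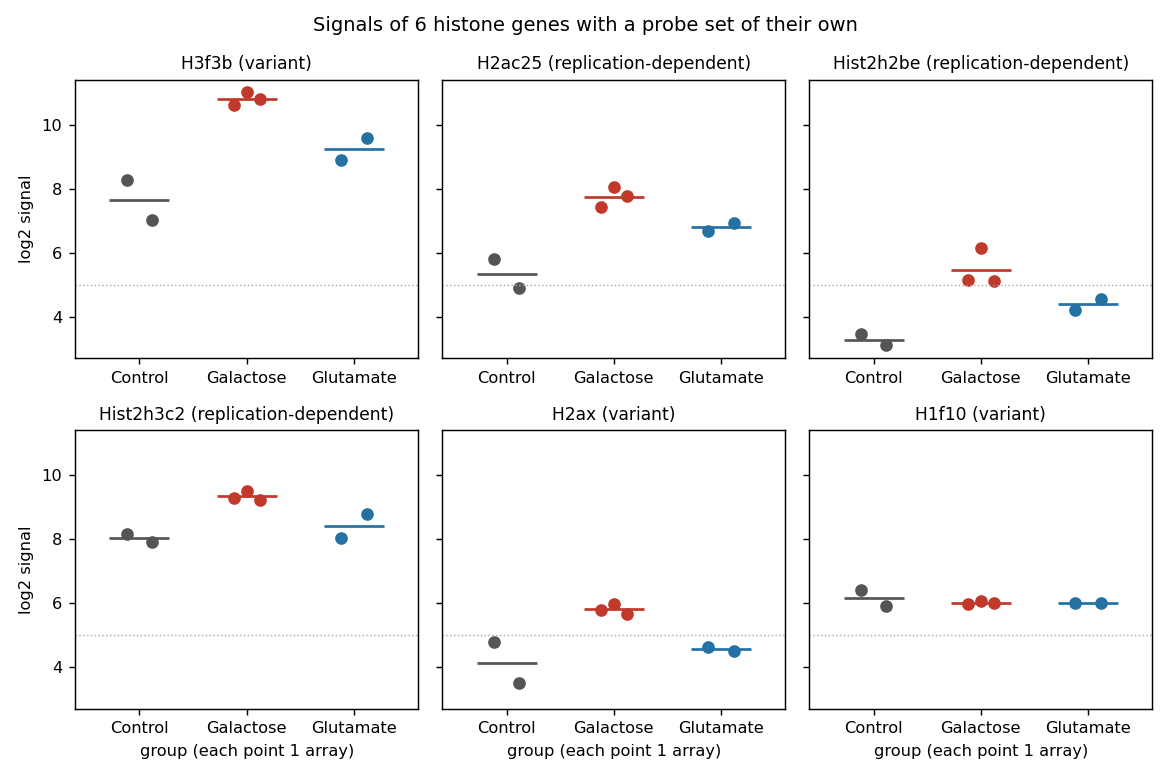
Each point is the log2 signal of 1 array, the horizontal bar is the group mean, and the dotted line marks 5; levels are to be compared within a panel only. H3f3b, H2ac25, Hist2h2be, Hist2h3c2 and H2ax had all 3 Galactose arrays above the Control and Glutamate arrays, and H1f10 stayed between 5.91 and 6.41 in all 7 arrays.

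The start regions of 5 genes are shown, chosen after their values were seen: those of the 3 members with the largest differences between Galactose and Control (H3f3b, H2ac25 and Hist2h2be), that of Hist2h3c2, an H3 gene in the same cluster as Hist2h2be, and that of H1f10, a variant linker histone with nearly equal group means. Each is the 300-base promoter window of RefSeq around the gene's start on the rat assembly GRCr8, given 5′ to 3′ on the gene's own strand. The windows lie at chr10:101757587-101757886 (minus strand), chr10:44233033-44233332 (plus strand), chr2:186469202-186469501 (plus strand), chr2:186525912-186526211 (plus strand) and chr4:121998848-121999147 (minus strand). Capitals mark the CCAAT box (CCAAT or, on the other strand, ATTGG) and the octamer ATTTGCAT (or ATGCAAAT), which OCT1 binds in H2B genes.
H3f3b promoter: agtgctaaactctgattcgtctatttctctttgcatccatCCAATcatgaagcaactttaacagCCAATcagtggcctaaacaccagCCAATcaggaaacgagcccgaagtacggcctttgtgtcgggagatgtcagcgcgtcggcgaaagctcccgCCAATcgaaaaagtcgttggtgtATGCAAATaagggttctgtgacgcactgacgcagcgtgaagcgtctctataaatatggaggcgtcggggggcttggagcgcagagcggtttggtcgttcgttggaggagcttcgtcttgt
H2ac25 promoter: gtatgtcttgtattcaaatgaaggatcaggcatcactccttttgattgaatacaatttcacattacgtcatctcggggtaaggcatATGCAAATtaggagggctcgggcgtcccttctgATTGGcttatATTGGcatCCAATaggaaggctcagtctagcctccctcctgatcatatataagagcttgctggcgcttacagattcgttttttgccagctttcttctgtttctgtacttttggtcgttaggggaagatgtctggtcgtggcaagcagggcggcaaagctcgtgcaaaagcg
Hist2h2be promoter: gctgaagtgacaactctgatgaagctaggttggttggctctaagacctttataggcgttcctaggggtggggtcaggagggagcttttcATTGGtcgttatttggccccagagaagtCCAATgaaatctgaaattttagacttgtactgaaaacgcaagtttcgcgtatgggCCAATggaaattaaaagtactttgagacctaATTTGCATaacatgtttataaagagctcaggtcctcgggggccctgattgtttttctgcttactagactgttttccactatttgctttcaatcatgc
Hist2h3c2 promoter: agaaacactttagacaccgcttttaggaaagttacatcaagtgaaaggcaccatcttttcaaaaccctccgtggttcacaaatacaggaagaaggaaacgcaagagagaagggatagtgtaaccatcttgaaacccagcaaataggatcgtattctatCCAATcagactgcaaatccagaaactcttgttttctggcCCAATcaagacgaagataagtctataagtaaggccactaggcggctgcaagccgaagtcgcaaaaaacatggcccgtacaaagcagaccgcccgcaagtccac
H1f10 promoter: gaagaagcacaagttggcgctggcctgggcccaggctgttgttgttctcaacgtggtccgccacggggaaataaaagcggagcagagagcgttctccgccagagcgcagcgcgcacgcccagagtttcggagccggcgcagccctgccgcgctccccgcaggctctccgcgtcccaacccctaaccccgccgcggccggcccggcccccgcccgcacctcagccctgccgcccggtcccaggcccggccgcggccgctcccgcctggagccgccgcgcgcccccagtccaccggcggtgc

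CCAAT boxes numbered 4 in the H3f3b window, 3 each in those of H2ac25 and Hist2h2be, 2 in that of Hist2h3c2 and 0 in that of H1f10. The octamer stood 1 time each in the windows of H3f3b, H2ac25 and Hist2h2be and in neither of the other windows. Promoters were found for 58 of the 63 histone gene IDs on the 60 probe sets, and CCAAT or ATTGG was in 82.8% of them, against 37.5% of all 33469 RefSeq promoters of the same length. The octamer was in 27.6% against 1.78%, and TATAAA (or TTTATA) in 51.7% against 14.2%. Both strands were searched for each motif, no capitals overlap, and a match describes the letters only. Some neighbouring histone genes share 237 to 283 bases of their windows, and a motif in a shared stretch counts for both genes in these shares.

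For the 21 members above 5 that have a probe set of their own and a promoter, motif counts were set beside the difference between Galactose and Control. The 4 members with 4 CCAAT boxes had log2 fold changes from 0.95 to 3.16, the 11 with 3 boxes from -0.16 to 2.42, the 2 with 2 boxes (Hist1h3b and Hist2h3c2) -0.02 and 1.30, and the 4 with 0 boxes from -1.21 (H2az2l1) to 1.60 (Hist1h4b), so the ranges overlapped. The 7 members with an octamer ran from 0.39 to 3.16 and the 14 without one from -1.21 to 1.67. Of these members, H2ac21 and H2ax (4 boxes each) and Hist2h2be (3 boxes and an octamer) were above 5 only in Galactose. H2az2l1 was so only in Control. The level of 5 let them in through the group where they were high, so these ranges are no test of the motifs. Some neighbouring genes share a start region read in opposite directions. H2ac25 shares 283 bases of its window with H2bu1, Hist2h2be shares 275 with H2ac20, and H2bc12 shares 248 with H2ac12. Of these pairs, H2bc12 and H2ac12 were both above 5, with log2 fold changes of 0.94 (standard error 0.25) and 0.40 (standard error 0.22), and the difference between them was not tested.

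Over the 2 classes, 0 of the 36 histones passed an adjusted p of 0.05 from Control to Galactose, where 5 of all 5320 probe sets (0.0940%) did. Before adjustment, 12 of 26 replication-dependent and 3 of 10 variant histones were higher at p under 0.05, where 11.8% of all probe sets were, and 0 and 0 were lower, where 5.23% were. The 36 include the 4 probe sets above 5 only in Galactose, and among probe sets with a mean over the 7 arrays above 5 the counts were 9 of 21 and 2 of 8, where 12% of all such probe sets were higher. The arrays did not overlap, with all Galactose arrays the higher, for 15 replication-dependent and 5 variant histones, where this held for 21.5% of all probe sets. In 0 and 0 of them all Galactose arrays were the lower, where this held for 12.1%. By mean alone, 62.0% of all probe sets were higher in Galactose, and after each array was centred on its median 51.4% were, with the median over all probe sets at 0.02; the replication-dependent and variant medians were then 0.73 and 0.52. Without Galactose 2, 7 replication-dependent histones were higher at an unadjusted p under 0.05, and the share over all probe sets was 6.60%.

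The Control arrays themselves differed for histones. From Control Day 4 to Control Day 6 the median difference was -0.48 over the replication-dependent class and -0.86 over the variant class, beside -0.40 for all probe sets, and 22 of 26 and 10 of 10 members were lower on Day 6. Set against Control Day 4 alone, the Galactose means had a median difference of 0.62 for replication-dependent histones (22 of 26 higher), 0.21 for variant histones (7 of 10 higher) and -0.02 for all probe sets. Set against Control Day 6 alone, which shares its 6 days with Galactose, the medians were 1.17, 1.10 and 0.32. With Control Day 4 left out of the fit, 16 of the 36 histones passed an adjusted p of 0.05, all of them higher in Galactose, while 1717 of all 5320 probe sets (32.3%) passed. That fit has 1 Control array and takes it to vary like the other groups. With Control Day 6 left out instead, 0 of the 36 passed, and 8 replication-dependent and 2 variant histones were higher at an unadjusted p under 0.05, where 8.38% of all probe sets were. Culture time and the Control array cannot be told apart, since each time had 1 array.

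**Figure D3:**
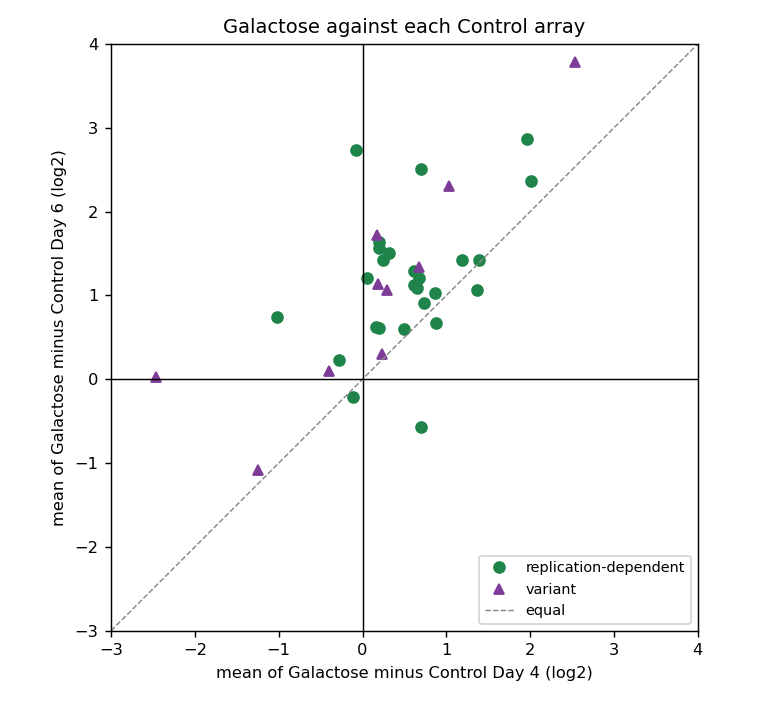
Each symbol is 1 of the 36 histone probe sets, placed by the mean of the 3 Galactose arrays minus Control Day 4 (x axis) and minus Control Day 6 (y axis), both in log2 units; the dashed line marks equal differences. For replication-dependent histones 22 of 26 lie to the right of 0 and 24 of 26 lie above 0, and most symbols lie above the dashed line.

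For H2B, all 7 probe sets had a higher mean in Galactose, with log2 fold changes from 0.39 to 2.19, and 6 of the 7 had no overlap with Control, where 21.5% of all probe sets were higher without overlap. Hist2h2be, with the value of 2.19, is among the 6, and it passed the level of 5 only in Galactose, the group where it was high. The gene ID of Hist2h2bb, by its platform symbol an H2B gene of the second cluster, did not match the current RefSeq gene table. Its probe set read 6.18 and 6.00 in Control, 6.93, 7.07 and 6.73 in Galactose, and 5.99 and 5.85 in Glutamate, so that Glutamate lay below every Control array and Galactose above. Its log2 fold changes were 0.82 (standard error 0.20, adjusted p = 0.149 in limma) and -0.99 (standard error 0.20, adjusted p = 0.606). H2bc12, an H2B gene of the first cluster, measured 7.45 and 6.93, then 8.10, 8.40 and 7.90, then 7.17 and 7.37 in the same order, with the Glutamate arrays inside the Control range. Here the differences were 0.94 (adjusted p = 0.174) and -0.86 (adjusted p = 0.706).

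Hist1h2bq, a further H2B gene of the first cluster, was 7.52 and 7.06 in Control, 7.63, 7.996 and 7.42 in Galactose, and 6.75 and 6.52 in Glutamate. Galactose overlapped Control, and the Glutamate arrays were the lowest of the 7. Glutamate against Galactose gave -1.05 in log2 units (standard error 0.26, adjusted p = 0.606 in limma), and the first step gave 0.39 (adjusted p = 0.419).

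For H4, all 5 probe sets had a higher mean in Galactose, as did 62.0% of all probe sets, with log2 fold changes from 0.89 to 1.60. Of the 5, 2 had no overlap with Control, where 21.5% of all probe sets were higher without overlap. The 5 name the same 4 genes in shared or single form, so they are not separate readings. Hist1h4b, a core H4 gene, measured 5.96 and 4.14 in Control, 7.08, 6.77 and 6.12 in Galactose, and 6.61 and 6.02 in Glutamate. Glutamate stayed within the Galactose range or just below it, and Control Day 6 was by far the lowest array. Its differences were 1.60 (standard error 0.56, adjusted p = 0.241 in limma) and -0.34 (adjusted p = 0.974).

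Hist1h4m was measured only on probe sets shared with other H4 genes or with H2A genes. On the one it leads, signals were 5.93 in Control Day 4 and 3.10 in Control Day 6, 6.83, 5.51 and 5.19 in Galactose, and 4.72 and 4.33 in Glutamate. Galactose overlapped Control Day 4, and the log2 fold change of 1.33 (standard error 0.85, adjusted p = 0.406 in limma) was -0.08 against Control Day 4 alone and 2.74 against Control Day 6 alone. The second step was -1.32 (adjusted p = 0.916). On the 2 probe sets led by H4cl3, which carry the same 4 genes, the first step was 0.95 and 0.92 and the second -0.64 and -0.57.

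Hist1h2ai, a core H2A gene of the first cluster, also has no probe set of its own above 5. It shares 2 with the same 5 other genes, and these gave different values. The brighter read 9.34 and 8.16 in Control, 9.72, 9.75 and 9.27 in Galactose, and 9.77 and 8.78 in Glutamate, so all 3 groups overlapped, with differences of 0.83 (adjusted p = 0.350 in limma) and -0.31 (adjusted p = 0.965). The other read 6.64 and 6.60, then 7.87, 8.78 and 7.43, then 7.10 and 6.61, with Galactose above all other arrays and differences of 1.41 (adjusted p = 0.185) and -1.17 (adjusted p = 0.853). Hist2h2aa2 and H2ac18, H2A genes of the second cluster on 1 shared probe set, measured 9.61 and 7.84, 9.03, 8.70 and 8.03, and 9.14 and 7.39. Their arrays overlapped in every comparison, and the differences were -0.14 (adjusted p = 0.917) and -0.32 (adjusted p = 0.975).

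For H3, the 4 replication-dependent probe sets had log2 fold changes from -0.02 to 1.30. Hist1h3b was at 6.15 and 5.64 in Control, 6.10, 6.18 and 5.33 in Galactose, and 5.89 and 5.91 in Glutamate, with differences of -0.02 (adjusted p = 0.968 in limma) and 0.03 (adjusted p = 0.992). The probe set shared by H3c13, Hist1h3b and Hist2h3c2 also had overlapping arrays, at 5.58 and 6.85, 6.20, 6.46 and 6.17, and 5.99 and 6.18. Its first difference of 0.06 (adjusted p = 0.929) turned to -0.09 after centring and -0.20 after a second quantile normalization. The probe set shared by H3c1 and those 3 genes read 6.37 and 5.86, 6.94, 7.49 and 6.53, and 5.99 and 5.33, with Galactose above all other arrays and differences of 0.87 (adjusted p = 0.290) and -1.33 (adjusted p = 0.625).

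Hist2h3c2 itself had a difference of 1.30 on its own probe set, so the probe sets that name it ran from 0.06 to 1.30. Coding sequences of replication-dependent genes of one family are close to identical, and how much each probe set reads from other copies was not tested. On probe sets with 1 platform gene, the replication-dependent median was 0.90 in the first step and -0.81 in the second (16 probe sets), and on shared ones it was 0.87 and -0.65 (10 probe sets).

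**Figure D4:**
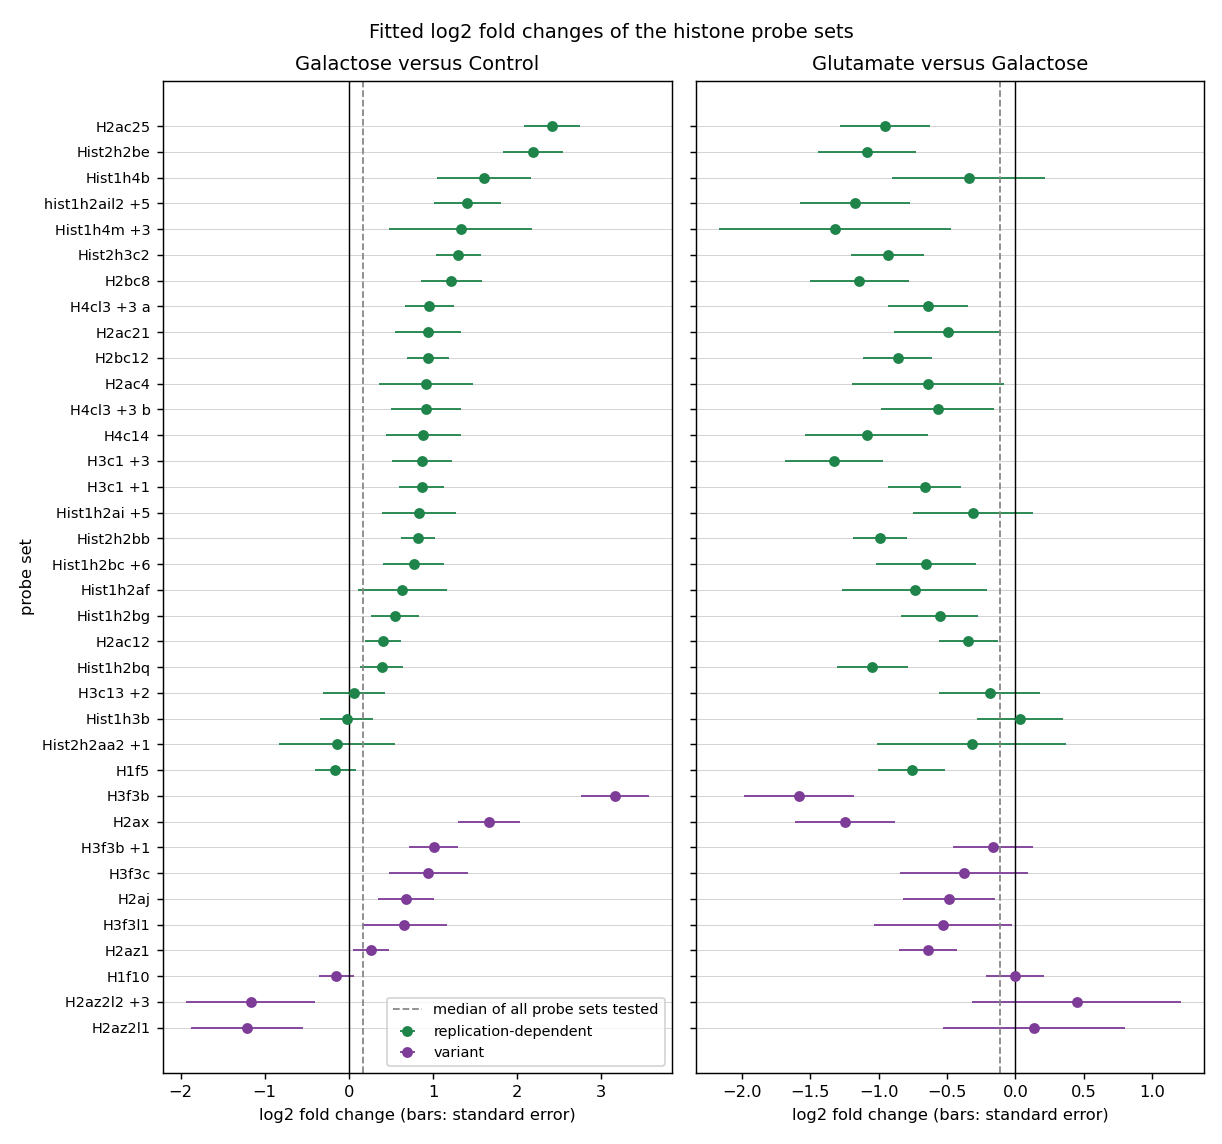
Points are fitted log2 fold changes of the 36 probe sets of Galactose against Control (left) and of Glutamate against Galactose (right), bars are standard errors, and the dashed line is the median over all 5320 probe sets tested. In the left panel 30 of 36 points lie to the right of 0 and in the right panel 33 of 36 lie to the left of 0; both panels use the same Galactose arrays.

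The other variant histones differed less than H3f3b and H2ax. Another 3 probe sets carry H3f3 symbols, but that of H3f3l1 alone and that of H3f3c do not name H3f3b. The one shared by H3f3b and H3f3l1 measured 8.16 and 7.49 in Control, 8.97, 8.84 and 8.69 in Galactose, and 8.36 and 8.98 in Glutamate, with Control below both other groups. It differed by 1.01 in the first step (standard error 0.29, adjusted p = 0.188 in limma) and by -0.16 in the second (adjusted p = 0.974), and the latter turned to 0.09 after a second quantile normalization.

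H3f3l1, an H3.3-like gene, was 6.84 and 5.88 in Control, 7.69, 6.80 and 6.57 in Galactose, and 5.91 and 7.07 in Glutamate. H3f3c, a pseudogene in RefSeq, was 5.72 and 4.16, 5.83, 6.06 and 5.76, and 5.12 and 5.89. In both, the Glutamate arrays were apart from each other and overlapped Galactose. The first differences were 0.66 (adjusted p = 0.473 in limma) and 0.94 (adjusted p = 0.336), and the second ones -0.53 (adjusted p = 0.940) and -0.38 (adjusted p = 0.955).

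H2A.Z, the variant found at promoters and enhancers, is encoded by H2az1 and H2az2. H2az1 measured 5.43 and 5.37 in Control, 5.78, 5.77 and 5.44 in Galactose, and 5.17 and 4.88 in Glutamate. The groups were separate but close, with differences of 0.27 (standard error 0.21, adjusted p = 0.485 in limma) and -0.64 (standard error 0.21, adjusted p = 0.812). H2aj, a variant close to canonical H2A, overlapped between groups, at 5.65 and 4.87, 6.39, 5.56 and 5.88, and 5.35 and 5.56, with differences of 0.68 (adjusted p = 0.331) and -0.49 (adjusted p = 0.916).

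H2az2 and its 3 copies, on 1 shared probe set, read 7.12 and 6.96 in Control, 7.53, 5.01 and 5.07 in Galactose, and 5.89 and 6.75 in Glutamate. The Galactose arrays were split, with Galactose 1 the highest array of all and Galactose 2 and Galactose 3 the lowest. The mean difference from Control was -1.17 (standard error 0.77, adjusted p = 0.415 in limma). H2az2l1 read 5.86 in Control Day 4 and 3.37 in Control Day 6, 3.51, 3.03 and 3.67 in Galactose, and 3.67 and 3.41 in Glutamate. Its difference of -1.21 (adjusted p = 0.360) was 0.03 against Control Day 6 alone.

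Of the linker histones, H1f10 and H1f5 were above 5. H1f10 measured 6.41 and 5.91 in Control, 5.98, 6.07 and 6.00 in Galactose, and 6.01 and 6.01 in Glutamate, with differences of -0.15 (standard error 0.21, adjusted p = 0.700 in limma) and -0.0048 (adjusted p = 0.999), the latter 0.11 after centring and 0.12 after a second quantile normalization. H1f5, a replication-dependent linker gene, was 4.95 and 5.05, 4.58, 5.23 and 4.70, and 4.00 and 4.15. Glutamate was below every other array, and the differences were -0.16 in the first step (adjusted p = 0.722), -0.76 in the second (standard error 0.25, adjusted p = 0.812) and -0.92 for Glutamate against Control (adjusted p = 0.721). H1f5 also had the lowest top value of the members above 5, at 5.23, and the highest top value among those left out was 4.89, on a further probe set of H2az2 and its copies.

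With glutamate added, 0 of the 36 histones passed an adjusted p of 0.05 against Galactose, as did 0 of all 5320 probe sets (0.00%), and the smallest adjusted p of a histone was 0.606. At an unadjusted p under 0.05, 12 of 26 replication-dependent and 3 of 10 variant histones were lower in Glutamate, where 4.40% of all probe sets were, and 0 and 0 were higher, where 1.13% were. Both Glutamate arrays were below all Galactose arrays for 15 replication-dependent and 3 variant histones, where this held for 21.7% of all probe sets. In 0 and 0 of them both were above, where this held for 7.76%. The counts by p and by arrays both include Hist2h2be, H2ax and the probe set shared by H3c1 and Hist1h2ail1. These were above 5 only in Galactose, so the level of 5 let them in through the group where they were high. After centring, these counts of 12 and 3 were 11 and 2, with 3.10% of all probe sets, and with a mean over the 7 arrays above 5 they were 8 of 21 and 2 of 8, with 4.03%. With Glutamate 1 left out, 5 replication-dependent histones were lower, where 3.12% of all probe sets were, and the variant median was 0.0027. Without Galactose 2 the count was 7, where the share was 2.31%, and without Glutamate 2 it was 8, where the share was 4.00%. Fitted on the arrays of these 2 groups alone, 14 replication-dependent and 3 variant histones were lower, where 9.83% of all probe sets were. H3f3b then had an adjusted p of 0.205 in limma. Since this comparison and that of Galactose with Control share the Galactose arrays, a high value there enters both.

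In Glutamate against Control, the median log2 fold change was 0.08 for the replication-dependent and 0.16 for the variant class, beside 0.06 for all probe sets, and 0 of the 36, like 0 of all 5320 (0.00%), passed an adjusted p of 0.05. At an unadjusted p under 0.05, 2 replication-dependent and 2 variant histones were higher, where 2.93% of all probe sets were. These were H2ac25 with 1.46 (adjusted p = 0.721 in limma), Hist2h2be with 1.10 (adjusted p = 0.723) and both probe sets of H3f3b, with 1.58 (adjusted p = 0.721) and 0.84 (adjusted p = 0.726). H1f5 was the 1 replication-dependent histone that was lower, with 0 among the variants, where 3.68% of all probe sets were. Without Control Day 4, H2ac25, H2ax, H3f3b and Hist1h4b passed an adjusted p of 0.05 as higher in Glutamate, while 880 of all probe sets (16.5%) passed, and the 2 class medians were 0.42 and 0.59.

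**Figure D5:**
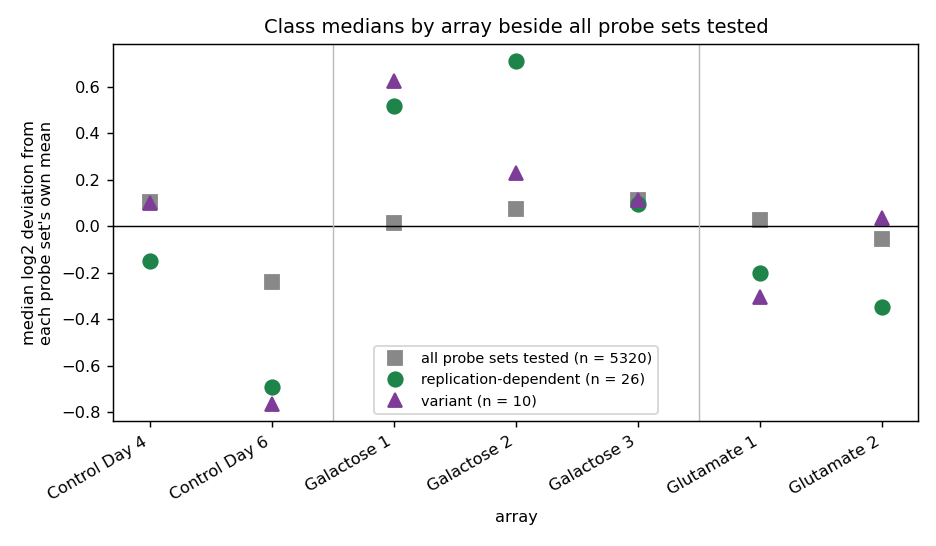
Each symbol is the median, over a class, of the log2 signal in 1 array minus each probe set's own mean over the 7 arrays. The replication-dependent median was 0.52, 0.71 and 0.10 in the 3 Galactose arrays, -0.15 and -0.69 in Control and -0.20 and -0.35 in Glutamate, while that over all probe sets stayed between -0.24 and 0.11; in Galactose 3 it was no higher than the median over all probe sets.

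The wider of the study's fold rules kept genes at least 2-fold higher in the mean of Galactose than in that of Control and at least 1.5-fold lower in Glutamate than in Galactose. On these values it was met by 254 of 5320 probe sets (4.77%), among them 6 of 26 replication-dependent and 2 of 10 variant histones. The 6 were H2ac25, Hist2h2be, Hist2h3c2, the probe sets led by hist1h2ail2 and Hist1h4m, and H2bc8, which is named only because it met the rule, and the 2 were H3f3b and H2ax. Of these, Hist2h2be and H2ax were above 5 only in Galactose. The level of 5 thus let them in through the group in which the rule needs them high, and the counts include them. The mirror rule, 2-fold lower and then 1.5-fold higher, was met by 34 probe sets, 0 of them a histone. For RT-qPCR the study asked for a larger fall with glutamate, a rule not applied here. Since it picked Hist1h2ai, Hist1h4m, H2afx and H3f3b on these same arrays, their direction here is not independent evidence.

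Genes of DNA replication and the cell cycle, with which replication-dependent histones are normally expressed, were mostly weak: of 31 on the array, 25 stayed at or below 5. Of the 6 above 5, Mki67, Tyms, Rrm2 and Prim1 were so only in Galactose arrays, and no count over the 6 is therefore given. Hmgb2, which bends DNA and is plentiful in cycling cells, passed the adjusted threshold, with 4.30 and 4.19 in Control, 6.45, 6.65 and 6.96 in Galactose and 5.60 and 6.10 in Glutamate (log2 fold change 2.44, adjusted p = 0.0315 in limma). Pcna, the sliding clamp of DNA polymerase, was at 5.41 and 4.52, 6.94, 6.69 and 6.58, and 5.22 and 5.43, with differences of 1.77 (adjusted p = 0.0896) and -1.41 (adjusted p = 0.606). Across all 31, the median signal was 3.22 and 3.45 in Control, 3.85 to 4.00 in Galactose and 3.35 to 3.39 in Glutamate. Their part in the histone values was not tested.

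Factors that make and trim histone transcripts were weak or overlapped between groups. Of 11 on the array, 6 were above 5, and 0 of them had an unadjusted p under 0.05 in either step, with a median of -0.13 from Control to Galactose. Slbp, which binds the stem-loop of replication-dependent transcripts, stayed under 5, at 1.99 and 1.92 in Control, 2.98, 2.81 and 2.72 in Galactose, and 2.47 and 2.49 in Glutamate. All 3 Galactose arrays were the highest there, and the Glutamate arrays came next.

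Of 24 histone chaperones on the array, 14 were above 5, and 3 had a higher value in Galactose at an unadjusted p under 0.05 (21.4% of the 14, beside 11.8% of all probe sets), with 0 lower and 0 past the adjusted threshold. Nasp, a chaperone of H3 and H4, read 3.88 and 3.88 in Control, 5.04, 5.54 and 5.21 in Galactose, and 4.95 and 5.002 in Glutamate, with a difference of 1.38 (adjusted p = 0.0798 in limma). Glutamate stayed close to Galactose there. Rbbp7 and Npm1, which also bind histones, had differences of 1.45 (adjusted p = 0.109) and 1.21 (adjusted p = 0.260).

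Of the enzymes that acetylate histones, 7 of 8 on the array were above 5. Hat1, which acetylates newly made H4, had a difference of 1.55 from Control to Galactose (adjusted p = 0.165 in limma), and Kat2b, a co-activator, one of -0.73 (adjusted p = 0.232). Among 5 deacetylases above 5, Hdac1 had 0.98 (adjusted p = 0.232), and the median of the 5 was 0.05. Outside the symbols used here, macroH2A, an H2A with a large extra domain, is encoded by Macroh2a1 and Macroh2a2, whose differences were -0.09 and 0.33 in the first step and -0.43 and -0.52 in the second, with adjusted p between 0.392 and 0.912. Cenpa, the centromeric H3, stayed below 5, between 2.82 and 3.37.

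Of the 6 lens fibre markers, 1 (Crygs) was higher and 3 (Gja3, Mip and Bfsp1) were lower in Galactose without overlap with Control. Of the 6 genes listed as epithelial markers, 0 were higher and 2 (Foxe3 and Prox1) lower, and how specific each is to the epithelium was not tested. Over all probe sets, 21.5% were higher and 12.1% lower without overlap. Foxe3, a factor of the dividing epithelium, was 6.88 and 6.25 in Control, 4.07, 4.89 and 4.89 in Galactose, and 5.85 and 6.05 in Glutamate, and Gja3, a fibre connexin, was 8.71 and 8.67, 7.40, 7.29 and 7.61, and 8.45 and 7.62. Pax6, a factor of the lens epithelium, overlapped between groups, at 7.23 and 6.74, 6.39, 7.52 and 7.49, and 7.03 and 7.19. Of the markers of other cell types, Cd68, a leukocyte gene, measured 3.85 and 3.51, 4.52, 4.96 and 4.45, and 4.73 and 5.15, which is 0.96 higher in Galactose than in Control (adjusted p = 0.173 in limma). Pdgfra, a receptor on the fibroblast and smooth muscle list, measured 7.21 and 6.38, 4.68, 5.11 and 5.43, and 6.11 and 5.27, with a difference of -1.72 (adjusted p = 0.133). The other markers of that list stayed at or below 5, and which cells gave the Pdgfra signal was not tested. For Cd68 and for Pdgfra, all Galactose arrays lay on one side of the Control arrays. The part of cell make-up in the histone values was not tested.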

How the data were processed

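RNA of 7 rat lens samples was hybridised to GeneChip Rat Gene 2.0 ST arrays. The authors deposited a log2 signal for each probe set, from 1 run of Robust Multi-array Average normalization on the 7 arrays; its software is not given in the sources used here. Probe sets were named from the platform annotation, where 18511 of 36685 have 1 gene, 575 several and 17599 none, the last being left out, and 62 of the 63 histone gene IDs matched the current RefSeq gene table. Of the named probe sets, those above 5 in at least 1 array were kept. The test was that of limma 3.58.1 (R 4.3.3), fitted with 1 mean for each group over the 7 arrays (4 residual and 2.73 prior degrees of freedom) and Benjamini-Hochberg adjustment over 5320 probe sets. The code of the fit was run on simulated data with independent values and no shift of a whole array. That run therefore does not cover a difference like that between the Control arrays. Summaries, motif searches and plots used Python 3.11.15, numpy 2.4.6, pandas 2.3.3 and matplotlib 3.10.9.

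Classes were set by symbol: Hist1h, Hist2h, Hist3h, H2ac, H2bc, H3c, H4c, H4f and H1f1 to H1f6 are replication-dependent, all others variant. Values by array are given for every variant histone above 5, the histones of the study's RT-qPCR list, the 5 replication-dependent probe sets with the smallest p in each comparison, the 3 with the highest mean and the 2 that differed least from Control to Galactose. For the other gene lists, the probe set with the highest mean was used. The members and lists were chosen with earlier results of these data known. Alternatives were other filters, normalizations, variance models and weights, 1 probe set per gene, only probe sets with 1 gene, a fit of only the 2 groups in question, a replicate block and leaving out each array; counting H2ax as replication-dependent and counting the histones called under each alternative were added once the data were seen. The number of arrays limits the precision. Opacity and RT-qPCR were not analysed here.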

Additional observations from a re-analysis of the deposited data

How the results depend on the processing

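The counts of probe sets called varied between the alternatives. From Control to Galactose, 5 probe sets passed, and 0 did with no filter on low values, 3 when the mean had to exceed 5, 0 with array weights, 1 with the arrays of the 2 groups alone, 21 after a second quantile normalization and 45 after each array was centred on its median, and leaving out 1 array gave 0 to 1717, the latter without Control Day 4. Histones numbered 2 among those called after the second quantile normalization and 2 after centring (H2ac25 and H3f3b each time), and 0 to 16 with 1 array left out, the 16 without Control Day 4. From Galactose to Glutamate, array weights called 1 probe set, and 0 histones were called in any alternative, including the fit with the replicate number as a replicate block (0 probe sets). The deviations of same-numbered Galactose and Glutamate arrays from their group means had correlations of -0.03 and 0.06. With 2 Glutamate arrays these deviations are exact opposites, so the correlations cannot show whether the numbers pair the arrays. From Control to Glutamate, the second quantile normalization and centring each called 1 probe set, and leaving out 1 array gave 0 to 880, with 0 to 4 histones. The medians of the replication-dependent class moved by less than the spread between arrays in the 2 comparisons with Galactose, whichever alternative was run (0.62 to 1.17 and -0.54 to -0.85 with 1 array left out). The variant median was 0.0644 and -0.0367 in those comparisons with no filter on low values, and with 1 array left out it ran from 0.21 to 1.10 and from -0.54 to 0.0027. From Control to Glutamate, leaving out 1 array moved the replication-dependent median from -0.11 to 0.42 and the variant median from -0.28 to 0.59. Of the 27 probe sets given by array, 21, 19 and 11 kept their sign in the 3 comparisons (Galactose against Control, Glutamate against Galactose, Glutamate against Control) under every alternative run. The others had log2 fold changes that crossed 0 when 1 array was left out. From Control to Galactose these ran from -0.57 to 0.70 for H3c13 with its partners, from -0.28 to 0.24 for Hist1h3b, from -0.0819 to 2.74 for Hist1h4m, from -1.02 to 0.74 for Hist2h2aa2, from -0.40 to 0.10 for H1f10 and from -2.46 to 0.0309 for H2az2l1. From Galactose to Glutamate they ran from -0.80 to 0.19 for Hist1h2ai, from -0.23 to 0.19 for Hist1h3b, from -1.19 to 0.55 for Hist2h2aa2, from -0.0245 to 0.0238 for H1f10, from -0.048 to 0.27 for H2az2l1, from -0.47 to 0.14 for the shared H3f3b probe set, from -0.76 to 0.0103 for H3f3c and from -1.11 to 0.0472 for H3f3l1. From Control to Glutamate they ran from -0.18 to 0.34 for H2bc12, from -0.76 to 0.51 for H3c13, from -0.0267 to 0.65 and from -0.25 to 0.94 for the 2 probe sets of H4cl3, from -0.0698 to 1.11 for Hist1h2ai, from -0.24 to 0.26 for Hist1h3b, from -1.40 to 1.42 for Hist1h4m, from -1.34 to 0.42 for Hist2h2aa2, from -0.0021 to 0.74 for Hist2h3c2, from -0.0064 to 0.48 for hist1h2ail2, from -0.40 to 0.10 for H1f10, from -0.19 to 0.58 for H2aj, from -0.21 to 1.06 for H2ax, from -2.32 to 0.17 for H2az2l1, from -0.21 to 1.35 for H3f3c and from -0.45 to 0.70 for H3f3l1. The second quantile normalization and centring turned the first step of H3c13 to -0.20 and -0.0859 and the second step of H1f10 to 0.12 and 0.11, and from Control to Glutamate they gave Hist1h3b -0.0387 and -0.0246. The second quantile normalization alone turned the second step of the shared H3f3b probe set to 0.0944 and the Control to Glutamate difference of H2bc12 to -0.0076, centring alone turned that of Hist1h4m to -0.0268, and the replicate block turned the second step of Hist1h3b to -0.23. The cause was not tested.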
